A study of Mus musculus with 12 samples.

Results

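Imprinted genes are transcribed mainly from the chromosome copy of one parent, and 37 of them, of 55357 genes in the count tables, are described here in the cortex of mouse embryos with and without Egfr. They were taken by name from a list of well-known mouse imprinted genes, with no threshold on their measured values. All 37 were found under their gene names. The tissue was the cortex with the hippocampal formation at E17.5, late in gestation, cut into rostral and caudal pieces, and 12 libraries were sequenced. The knockout groups, labelled NcreEGFRFF, carried a Nestin-Cre transgene, which acts in neural progenitors, and 2 floxed alleles of the epidermal growth factor receptor gene (Egfr F/F). The control groups, labelled EGFRF+, carried 1 floxed and 1 normal allele (Egfr F/+), and whether they also carried Cre is not given in the sources used here. The 2 genotypes and 2 pieces make 4 groups of 3 libraries each, and the titles number 6 embryos, 3 of each genotype. Nestin-Cre is driven in cells of the neural lineage, while vessels, blood and meninges also give RNA to such pieces. Before the embryo number the titles carry a further number, 4858 or 4692, which occurs in both genotypes and both pieces, and what it stands for is not given in the sources used here. The spread measured here is the spread between libraries.

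Imprinted genes lie in clusters, and each cluster is governed by an imprinting control region that is methylated on only one parental copy. The methyl mark is set in the germ line and is kept through development by DNA methyltransferases together with zinc finger proteins such as ZFP57, while a long noncoding RNA or the insulator protein CTCF carries the state to the neighbouring genes. Many imprinted genes control the growth of the fetus and the placenta, and in the brain they are known for their roles in neuronal differentiation, feeding and social behaviour. The counts do not separate the 2 parental copies, so the values below are the sum of both alleles and the parental origin is background from textbook knowledge. On that background, 19 members are expressed from the paternal copy, 9 from the maternal copy, and 9 in a way that depends on the isoform or the tissue.

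The members were spread over 10 chromosomes, with 14 on chromosome 7, and 30 of the 37 lay within 1 Mb of another member. Among them 7, namely H19, Meg3, Rian, Mirg, Kcnq1ot1, Airn and Peg13, were long noncoding RNAs, and the other 30 coded for proteins. Counting was strand-specific, which keeps Nnat apart from Blcap on the opposite strand, Igf2r from Airn, and Commd1 from Zrsr1. Of the members, only Snrpn shared more than 10% of its exonic bases with other genes on its own strand (27.3%, with Snurf and Gm38393), so its count depends on how shared fragments were divided.

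Before the levels, the labels were checked. The total count per library was 25223733 to 30383672, and 25682 to 27178 genes had a count above 0. Egfr in the rostral libraries was at 5.13 ± 1.68 counts scaled to a library total of 1000000 (CPM) in the knockout and 25.4 ± 5.96 in the control (SD, n = 3 each), and in the caudal libraries at 6.41 ± 0.836 and 36.1 ± 5.90. The knockout level was thus 20.2% and 17.8% of the control level, and no knockout library reached a control library. With 3 against 3 libraries an exact permutation test (two-sided) cannot go below p = 0.1, and it gave that value for both pieces. Growth hormone (Gh) RNA, a pituitary product, was at 6.06 to 7.87 CPM in the 6 knockout libraries and at 0 in the 6 controls. The genotype labels therefore held in all 12 libraries, whereas other labels did not. Only 1 of 6 titled embryos had a rostral and a caudal library that were alike in Xist and Y-linked transcripts (a level over 50 CPM taken as present), and control rostral 1 and control rostral 3 held both kinds. Nr2f1, a transcription factor that is higher in the caudal than in the rostral cortex, was at 340 CPM in knockout rostral 2 and 348 in control rostral 3, but at 71.3 in knockout caudal 2 and 58.6 in control caudal 3. Rostral and caudal are hence the labels of libraries, and every direction between them in the results rests on labels that this marker goes against in some libraries. The titled pairs were not used as pairs, since libraries of the same number did not deviate from their group means together.

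Of the 37 members, 35 passed the filter on low counts that every gene had to pass before testing. Phlda2, a placental growth inhibitor, was at 0 to 2 counts per library, and Slc22a18, a transporter from the same cluster, at 1 to 11 counts, and neither was tested. Together the members made up 3489 to 4892 CPM of a library. Nnat and Gnas alone gave 45.4% of the members' summed mean level.

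The stretches of promoter shown first are those of members whose levels are followed below, so that the gene starts can be seen beside the values. They come from RefSeq on the GRCm38.p6 build, which is not the build of the counts, and 29 of the 37 members had an entry. Peg3 and Usp29 on chromosome 7 are read in opposite directions, and 163 bases separate their starts (chr7:6730420-6730582, written on the Peg3 strand). Meg3, Rian and Mirg stand one after another on the plus strand of chromosome 12, and the 250 bases before each start are shown (chr12:109540746-109540995, chr12:109603695-109603944 and chr12:109734731-109734980). Zim1, the neighbour of Peg3 on the minus strand, is given for its uneven level (chr7:6696433-6696682). Capitals mark a match to the ZFP57 motif TGCCGC, searched on both strands, which reads GCGGCA on the other strand.
Peg3-Usp29: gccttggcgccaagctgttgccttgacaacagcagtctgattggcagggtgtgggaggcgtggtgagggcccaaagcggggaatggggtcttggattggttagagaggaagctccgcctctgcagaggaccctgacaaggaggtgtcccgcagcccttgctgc
Meg3: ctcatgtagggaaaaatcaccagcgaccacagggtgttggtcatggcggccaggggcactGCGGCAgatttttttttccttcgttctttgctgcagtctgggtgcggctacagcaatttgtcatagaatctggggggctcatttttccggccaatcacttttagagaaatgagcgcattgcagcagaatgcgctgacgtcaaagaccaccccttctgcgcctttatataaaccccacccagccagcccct
Rian: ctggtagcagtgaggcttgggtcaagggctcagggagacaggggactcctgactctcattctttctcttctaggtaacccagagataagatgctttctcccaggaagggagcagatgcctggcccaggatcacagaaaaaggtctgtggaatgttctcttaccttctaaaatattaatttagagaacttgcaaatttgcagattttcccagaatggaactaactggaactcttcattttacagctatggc
Mirg: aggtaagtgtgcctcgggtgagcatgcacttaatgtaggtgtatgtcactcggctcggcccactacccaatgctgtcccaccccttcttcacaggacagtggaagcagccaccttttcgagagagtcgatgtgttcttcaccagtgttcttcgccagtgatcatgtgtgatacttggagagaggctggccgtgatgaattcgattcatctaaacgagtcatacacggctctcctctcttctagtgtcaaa
Zim1: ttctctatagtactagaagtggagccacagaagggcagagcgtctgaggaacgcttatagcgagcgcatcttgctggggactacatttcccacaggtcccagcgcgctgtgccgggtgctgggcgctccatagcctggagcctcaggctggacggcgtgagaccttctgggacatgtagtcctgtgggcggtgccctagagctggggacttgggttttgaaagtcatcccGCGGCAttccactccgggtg
The stretch before Meg3 held 1 match and 10 CpG sites, that before Zim1 held 1 match and 14 CpG sites, and that before Rian held neither. Over full windows of 300 bases (250 before to 50 after a start), the 41 windows of the 29 members had a median of 15 CpG sites, against 7 over all 32851 windows of 27025 genes. The motif TGCCGC was present in 10 of the 41 windows (24.4%) and in 11.6% of all windows. This motif itself holds a CpG, and the 2 shares were not compared at like CpG content. Windows of the same gene can overlap, as those of Mest that start at 30737800 and 30737803, so some matches count more than once. The motif GCCATNTT, bound by YY1, was present in 2 of them (4.88%) and in 6.05% of all windows. A match is a description of letters, and no binding or methylation was measured here.

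Levels between genes are compared as mean CPM per kilobase of exonic length over the 12 libraries. On that scale the 5 highest members were Nnat (508), Gnas (80.2), Peg13 (64.0), Snrpn (44.3) and Mest (38.1). Nnat encodes neuronatin, a small membrane protein of differentiating neurons, and Gnas encodes the stimulatory G protein alpha subunit. Ndn, for necdin, followed at 34.2, and Inpp5f, a phosphoinositide phosphatase, at 32.4. At the other end, Phlda2 (0.0165), Slc22a18 (0.0945), Mirg (0.127), Airn (0.146), Ddc (0.172) and Kcnq1ot1 (0.173) were the lowest. The exonic length of Kcnq1ot1 in the annotation is 93092 bases, which lowers its value on this scale, since its level was 10.3 to 19.5 CPM.

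**Figure D1:**
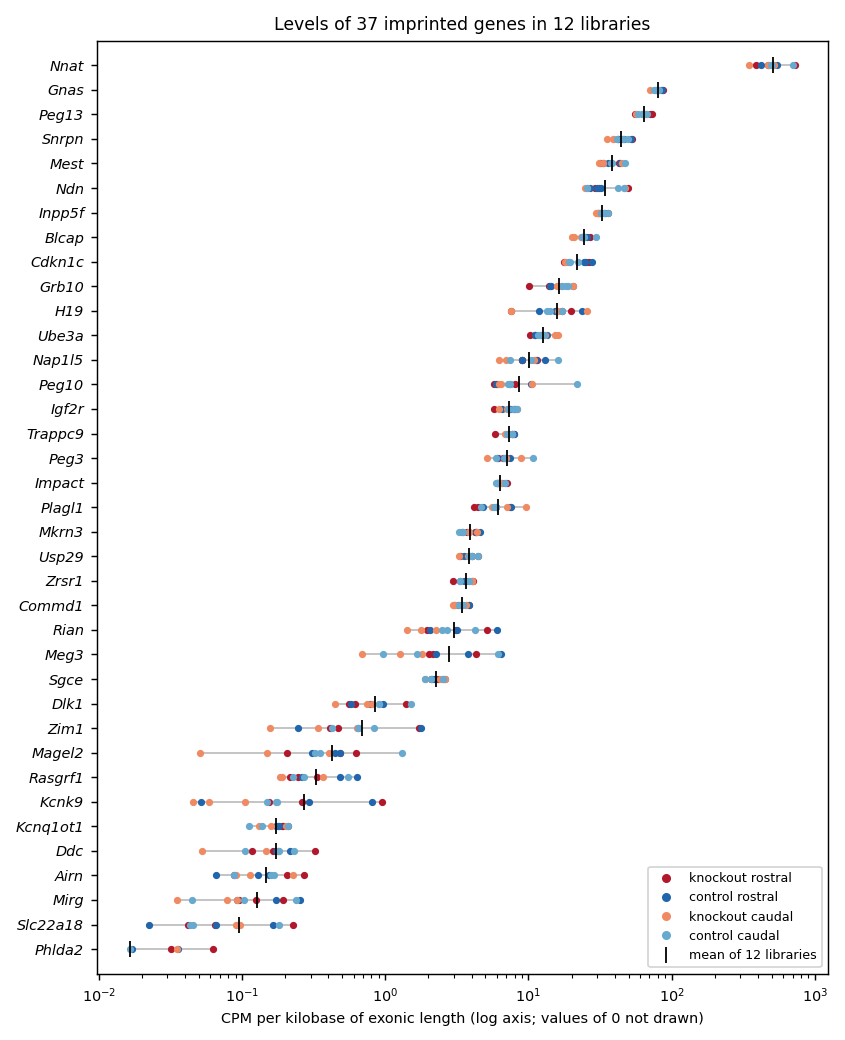
Level of each of the 37 imprinted genes in each of the 12 libraries, as CPM per kilobase of exonic length on a log axis, with points coloured by group and a bar at the mean of the 12 libraries. Nnat stands at a mean of 508 and Gnas at 80.2, and the points of the 4 groups lie among each other for most genes.

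Nnat (chromosome 2, 157401998 to 157404442 on GRCm39) was at 707, 867 and 1325 CPM in the 3 knockout rostral libraries 5, 2 and 7, and at 949, 857 and 637 in the knockout caudal libraries of the same numbers. In the controls it was at 774, 1005 and 928 CPM in the rostral libraries 1, 3 and 9 and at 898, 1291 and 913 in the caudal ones. Knockout rostral 7 and control caudal 3 were the highest, and the groups overlapped throughout. Nnat lies within an intron of Blcap, a gene of the opposite strand that was at 60.9 to 89.9 CPM, and the ratio of the 2 genes' CPM was 9.64 to 18.4 in the knockout libraries and 10.4 to 14.4 in the controls.

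Gnas (chromosome 2, 174126113 to 174188537) was one of the steadiest members. Its level was 996, 906 and 914 CPM in knockout rostral, 902, 916 and 808 in knockout caudal, 977, 895 and 967 in control rostral, and 878, 934 and 863 in control caudal libraries. The highest library was 1.23 times the lowest. Impact, an inhibitor of the GCN2 kinase known from the brain, and Inpp5f were alike in this respect, at 1.19 and 1.22 times.

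Peg13 (chromosome 15, 72677449 to 72682173) is a paternally expressed noncoding RNA inside Trappc9, a gene of vesicle traffic. It was at 335, 344 and 264 CPM in knockout rostral, 268, 306 and 304 in knockout caudal, 315, 297 and 303 in control rostral, and 296, 320 and 277 in control caudal libraries. The 2 genotypes overlapped. Its ratio to Trappc9 in CPM stayed between 4.54 and 5.70 in the 12 libraries, both genes being counted on the same strand.

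Snrpn (chromosome 7, 59632243 to 59789967), a splicing protein gene whose locus holds the Prader-Willi imprinting centre, was at 91.8, 114 and 96.5 CPM in knockout rostral and 83.8, 85.8 and 76.2 in knockout caudal libraries. In the controls it was at 100.2, 113 and 91.5 CPM in rostral and 98.6, 106 and 89.1 in caudal libraries. All 3 knockout caudal libraries lay below all 3 control caudal ones, while the rostral libraries overlapped. Mest (chromosome 6, 30723546 to 30748464), a hydrolase family gene of the mesoderm and brain, was at 125, 130 and 170 CPM in knockout rostral and 130, 179 and 122 in knockout caudal libraries. Its control levels were 142, 149 and 171 CPM in rostral and 150, 186 and 151 in caudal libraries, and the genotypes overlapped.

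The members differed widely in how evenly they were expressed. In 12 of the 35 tested members the highest library was more than 3 times the lowest, and in 12 it was less than 1.5 times the lowest. Against all 17734 tested genes, ordered by the SD of their log2 level over the 12 libraries, 12 members lay above the 75th percentile and 6 below the 25th. The members with the widest range, chosen for description after their values were seen, were Magel2 (25.7 times), Kcnk9 (21.1), Zim1 (11.5), Meg3 (9.47), Mirg (7.24), Ddc (6.09), Rian (4.29), Airn (4.09) and Peg10 (3.78). For Magel2, Mirg, Ddc and Airn the lowest library held only 6 to 8 counts, so counting error takes part in these ranges.

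The Dlk1-Meg3 domain on chromosome 12 holds Dlk1, a paternally expressed Notch ligand family member, and the maternally expressed noncoding RNAs Meg3, Rian and Mirg, which carry small nucleolar RNAs and microRNAs. Meg3 (chromosome 12, 109506884 to 109538160) was at 36.2, 77.2 and 38.9 CPM in knockout rostral, 12.4, 32.4 and 22.8 in knockout caudal, 67.9, 117 and 40.7 in control rostral, and 30.1, 111 and 17.4 in control caudal libraries. Rian, 32082 bases further along, was at 62.2, 165 and 100.4 CPM, then 56.4, 72.8 and 45.1, then 102, 194 and 65.5, and then 79.5, 135 and 86.8 CPM in the same order of groups. Mirg, a further 68048 bases along, reached at most 1.84 CPM. The same 3 libraries, control rostral 3, control caudal 3 and knockout rostral 2, held the 3 highest levels of each of these RNAs, and they belong to 3 of the 4 groups. The ratio of Rian to Meg3 in CPM was 1.22 to 4.98, and mRNA capture favours RNAs with a poly(A) tail, which bears on how such noncoding RNAs are recovered.

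Dlk1, read towards Meg3 and 77622 bases away from it, did not have the same top libraries. It was at 3.48, 3.15 and 7.94 CPM in knockout rostral, 4.20, 4.60 and 2.5 in knockout caudal, 3.26, 4.44 and 5.46 in control rostral and 5.09, 8.61 and 5.11 in control caudal libraries. Control caudal 3 and knockout rostral 7 were the highest.

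In the Peg3 domain, Usp29 varied less over the libraries (1.37 times from lowest to highest) than Peg3 (2.11 times) and Zim1 (11.5 times). Peg3, a zinc finger protein gene, was at 69.7 to 147 CPM, and Usp29, a ubiquitin protease gene that starts from the shared stretch printed above, at 58.8 to 80.5. Their ratio in CPM was 1.16 to 1.83 over the 12 libraries. Zim1, a maternally expressed zinc finger gene 7442 bases from Peg3, was at 3.77, 13.9 and 3.32 CPM in knockout rostral, 2.73, 1.26 and 5.16 in knockout caudal, 5.19, 14.4 and 1.98 in control rostral and 5.17, 3.43 and 6.77 in control caudal libraries. Knockout rostral 2 and control rostral 3 stood above the other 10 libraries.

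The same 2 libraries were the highest for Kcnk9 (chromosome 15, 72372938 to 72418189), a maternally expressed potassium channel gene 43280 bases from Trappc9. Kcnk9 was at 3.22, 11.7 and 1.89 CPM in knockout rostral, 0.724, 0.554 and 1.29 in knockout caudal, 3.63, 9.87 and 0.633 in control rostral, and 2.16, 1.84 and 2.13 in control caudal libraries. Knockout rostral 2 and control rostral 3 were thus far above the other rostral libraries, and control rostral 9 was near the lowest caudal ones. Knockout rostral 2 and control rostral 3 were also the 2 rostral libraries with Nr2f1 over 300 CPM. Nr2f1 was over 300 CPM as well in knockout caudal 7 (348), control caudal 1 (343) and control caudal 9 (373). In these caudal libraries Kcnk9 was only at 1.29, 2.16 and 2.13 CPM, and Zim1 at 5.16, 5.17 and 6.77. The part of the Nr2f1 differences between libraries in Kcnk9 and Zim1 was not tested.

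In the Prader-Willi region on chromosome 7, Ndn was at 92.1 to 183 CPM and Mkrn3, a RING finger gene, at 8.30 to 11.7. Magel2, a ubiquitin ligase regulator gene 26748 bases from Ndn, was at 0.952, 2.87 and 2.25 CPM in knockout rostral, 0.691, 1.87 and 0.234 in knockout caudal, 2.06, 2.22 and 1.42 in control rostral, and 1.5, 6.01 and 1.62 in control caudal libraries. Control caudal 3 stood above the other 11. The ratio of Ndn to Magel2 in CPM was 28.5 to 402.

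Peg10, a gene derived from a retrotransposon, starts 99 bases from Sgce, the gene of epsilon-sarcoglycan, on the opposite strand. Peg10 was at 145 CPM in control caudal 3 and at 38.4 to 70.7 in the other 11 libraries. Sgce did not share this, at 20.0 to 27.6 CPM with 26.6 in control caudal 3.

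**Figure D2:**
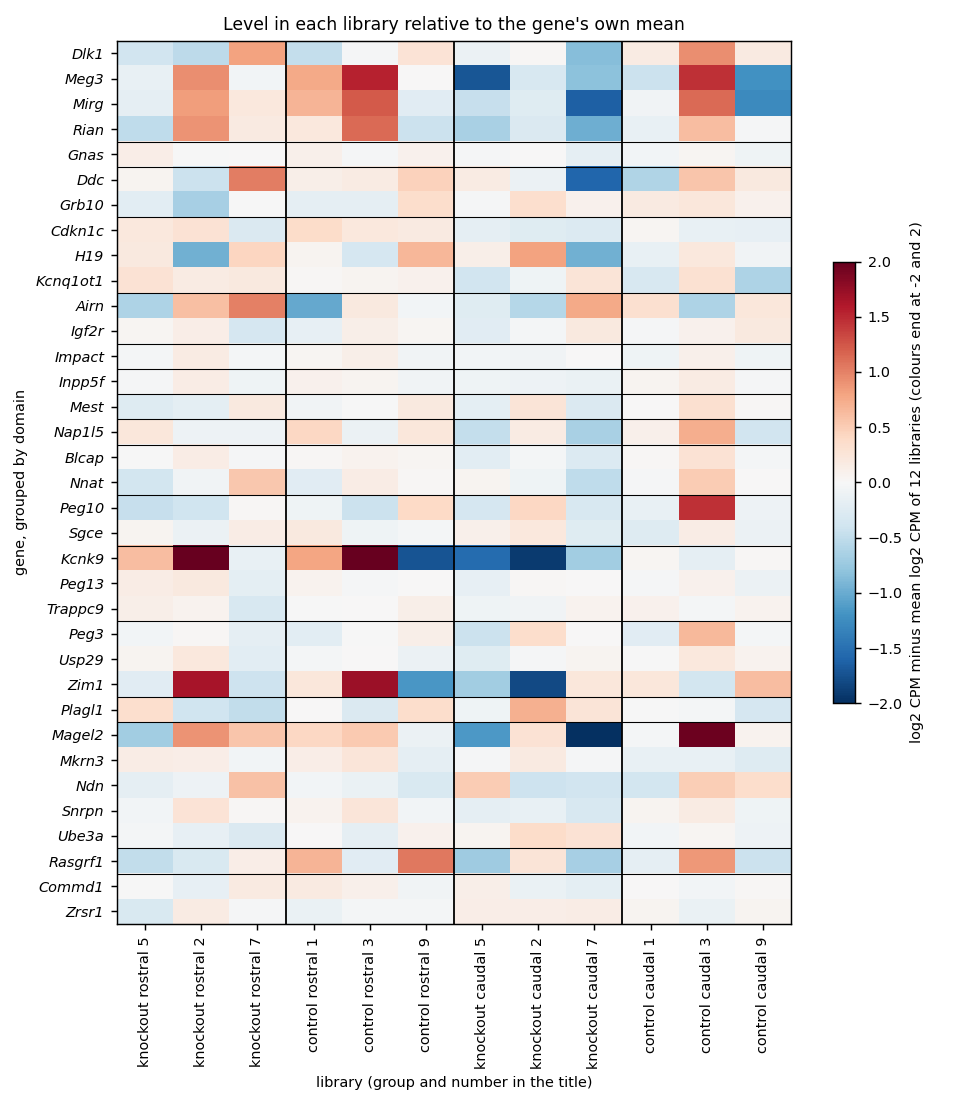
Colour map of the level of each tested member in each of the 12 libraries, as log2 CPM minus the gene's mean over the libraries, with genes grouped by domain and colours ending at -2 and 2. Meg3, Rian and Mirg are high in control rostral 3, control caudal 3 and knockout rostral 2, and Zim1 and Kcnk9 are high in knockout rostral 2 and control rostral 3.

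Growth regulators stood at middle levels. H19 was at 18.7 CPM in the 2 lowest libraries, knockout rostral 2 and knockout caudal 7, and at 63.4 CPM in the highest, knockout caudal 2, with 29.0 to 57.8 in the controls. The same 2 libraries that were lowest for H19 had the lowest sums of 8 mural cell markers (86.2 and 87.8 CPM, against 114 to 228 elsewhere). At the high end the order differed. The mural sum was 148 CPM in knockout caudal 2 and only 114 in control rostral 9, where H19 was at 57.8 CPM. It was highest, at 228 CPM, in knockout rostral 7, where H19 was at 48.9 CPM. The part of mural cells in the H19 level was not tested. Igf2, which lies beside H19, was likewise lowest in knockout rostral 2 and knockout caudal 7, at 13 and 13.4 CPM. Grb10 was at 92.4 to 187 CPM, Plagl1 at 32.7 to 75.6, Cdkn1c at 36.0 to 56.7 and Igf2r at 53.6 to 77.6. Airn, the noncoding RNA that silences Igf2r on the paternal copy outside neurons, was at 0.305 to 1.25 CPM, and the ratio of Igf2r to Airn was 42.9 to 198.

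The remaining members included genes with little spread. Trappc9 was at 46.4 to 63.2 CPM, lowest in knockout rostral 7, which was also the lowest library for Peg13. Commd1, a copper and NF-kappa-B regulator gene, was at 17.7 to 22.9 CPM, and Zrsr1 within it at 13.3 to 18.5. Nap1l5, a nucleosome assembly family gene inside Herc3, was less even at 11.5 to 29.7 CPM, with the highest level in control caudal 3. Ddc, the enzyme that makes dopamine and serotonin, was at 0.234 to 1.43 CPM, and knockout rostral 7 was the highest.

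A few libraries held many of the extreme levels. Control caudal 3 had the highest level of 9 members, knockout rostral 2 of 8, and knockout caudal 7 had the lowest of 14. The 8 include the untested Phlda2 and Slc22a18, at 2 and 11 counts. How often these libraries were extreme over all genes was not counted, so the numbers describe libraries and not a trait of imprinted genes. Markers of cells from other places were also uneven over these libraries. Control caudal 3 had the highest summed level of 10 ventral striatal markers (259 CPM, against 18.3 to 170 in the knockout libraries and 41.5 to 197 in the other controls), of 10 interneuron markers (905 CPM, with 199 to 735 in the knockout) and of 10 hypothalamic and pituitary markers (6.60 CPM, with 1.05 to 2.58 in the knockout). In that last list only 2 genes were tested, Cga was at 0 in all libraries, and Nkx2-1, a gene of the ventral forebrain, gave 5.79 CPM in control caudal 3. Knockout caudal 7 had the lowest striatal (18.3 CPM) and interneuron (199 CPM) sums. Knockout rostral 2, the highest library for 8 members, had the next lowest of both, at 23.4 and 309 CPM. Knockout rostral 7, which was the lowest library for 6 members and the highest for 5, had 7.25% mitochondrial counts, against 1.96% to 4.77% elsewhere, and the highest red cell sum (12350 CPM, with 4232 to 8194 elsewhere). Control rostral 3 had the highest sum of choroid plexus markers (57.4 CPM, of which Ttr gave 49.5). The part of these cell types and of RNA quality in the members' levels was not tested. In bulk tissue, fewer cells of a type and less RNA per cell cannot be told apart.

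**Figure D3:**
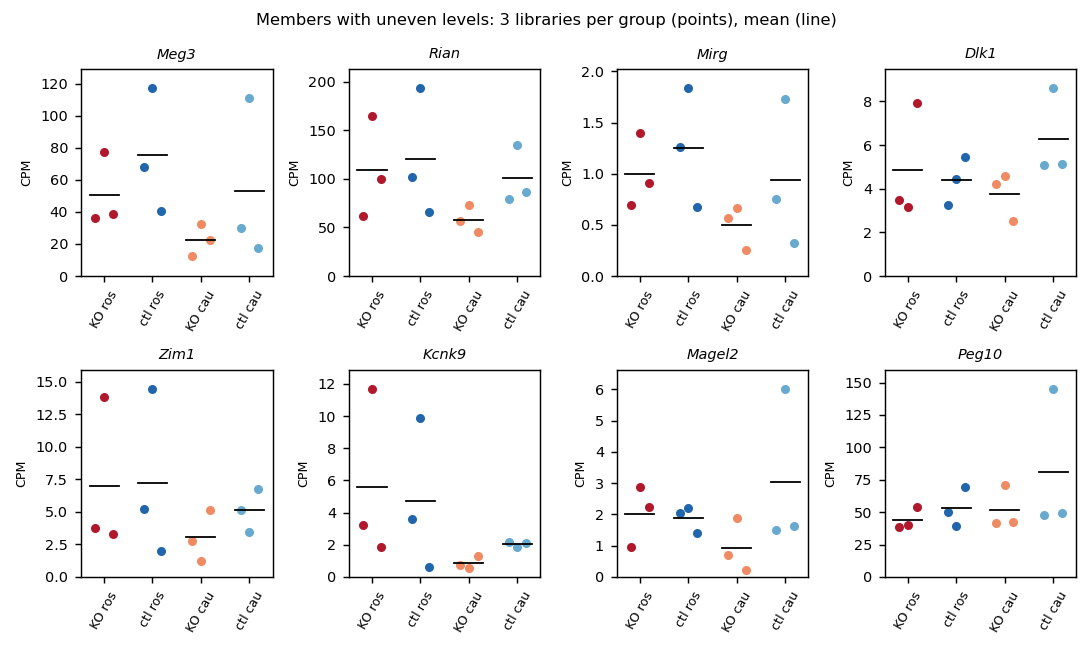
CPM of 8 members in each library, by genotype and labelled part (KO, knockout; ctl, control; ros, rostral; cau, caudal), with a point for each library and a line at the mean of the 3, on axes that start at 0. Single libraries stand above the rest of their group, such as control caudal 3 for Peg10 at 145 CPM and knockout rostral 2 for Kcnk9 at 11.7 CPM.

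The first question of the design is whether loss of Egfr changed gene expression over both parts. No member passed the test, 0 of 35 at an adjusted p under 0.05 (edgeR quasi-likelihood test, Benjamini-Hochberg adjustment over 17734 genes), where the background was 0.0226% of all tested genes, or 4 genes. At an unadjusted p under 0.05 the count of members was again 0, against 2.24% of all genes. The lowest unadjusted member p was 0.0665 (edgeR). DESeq2 also called none, with 1 member of 37 at an unadjusted p under 0.05 (2.7%, against 1.21% of all genes). DESeq2 was run without the filter on low counts, so its shares here and below are over 36318 genes. They are not on the same footing as the edgeR shares over 17734 genes. The levels of all 35 members overlapped between the 6 knockout and the 6 control libraries, and of all tested genes 0.124% did not overlap.

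The log2 fold changes, knockout minus control, ranged from -0.87 (Meg3) to 0.41 (Airn), with a median of -0.08, and 12 of 35 were positive, beside a median of 0.0 and 50.01% positive over all genes. By parental copy, 9 of the 19 paternally expressed members were positive with a median of -0.01. Of the 7 tested maternally expressed members 1 was positive, with a median of -0.43, and of the 9 members that depend on isoform or tissue 2 were positive, with a median of -0.05. Meg3, Rian and Mirg, which had the same top libraries, are 3 of the 7 maternally expressed members, so these 7 are not independent of each other, and the 1 positive member is H19 at 0.00. The median of the 7 was -0.14 without control rostral 3, -0.29 without control caudal 3, -0.27 without knockout rostral 7, -0.73 without knockout rostral 2 and -0.10 without both control rostral libraries of mixed sex. Over both parts the 10 ventral striatal markers were all lower in the knockout, with a median of -0.55. So were the 10 interneuron markers, with a median of -0.31. The 8 tested endothelial markers (median -0.1) and the 4 tested choroid plexus markers (-1.22) were also all lower. Of the 6 tested meningeal markers 5 were lower (-0.29). Other lists went the other way, with 7 of 8 mural and 7 of 8 microglia markers higher (medians 0.16 and 0.15). Radial glia and progenitor markers had 5 of 9 higher (0.06), and red cell markers 5 of 7 (0.08). Of the 9 cortical neuron markers 6 were higher (median 0.07). The part of these cell types in the members' values was not tested.

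For many members the data bound the size of a difference. The 95% interval of the fold change lay within 1.5-fold in both directions for 22 of the 35 members and within 2-fold for 26. Gnas had a log2 change of 0.01 with an interval of -0.13 to 0.14, Impact 0.02 (-0.11 to 0.16), Inpp5f -0.06 (-0.18 to 0.07) and Peg13 0.04 (-0.13 to 0.20). Mest, at -0.12 (-0.39 to 0.15), and Nnat, at -0.09 (-0.47 to 0.28), were less closely bounded.

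Other members had intervals too wide to bound a change. Meg3 had a log2 change of -0.87 (-1.88 to 0.14, unadjusted p = 0.0837, adjusted p = 0.9999 by edgeR), at 36.7 ± 22.1 CPM in the knockout and 64.1 ± 42.2 in the control (SD, n = 6 libraries each). Without control caudal 3 its change was -0.29. Rasgrf1, a guanine nucleotide exchange factor for Ras that is expressed from the paternal copy in the brain, was at 2.04 to 4.03 CPM in the knockout and 2.5 to 6.97 in the control. Its change was -0.62 (-1.29 to 0.05, unadjusted p = 0.0665, adjusted p = 0.9999 by edgeR), and -0.37 without control caudal 3. The growth regulators were not separated by genotype: H19, a noncoding RNA that restrains growth, had a change of 0.00 (-0.68 to 0.69), Grb10, an adaptor that dampens insulin signalling, -0.13 (-0.43 to 0.17), Igf2r, which clears the growth factor IGF2, -0.05 (-0.26 to 0.17), and Plagl1, a zinc finger growth suppressor, 0.15 (-0.25 to 0.55). A p that misses the threshold does not show that the levels were equal, and for H19 the interval takes in more than 1.5-fold either way.

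**Figure D4:**
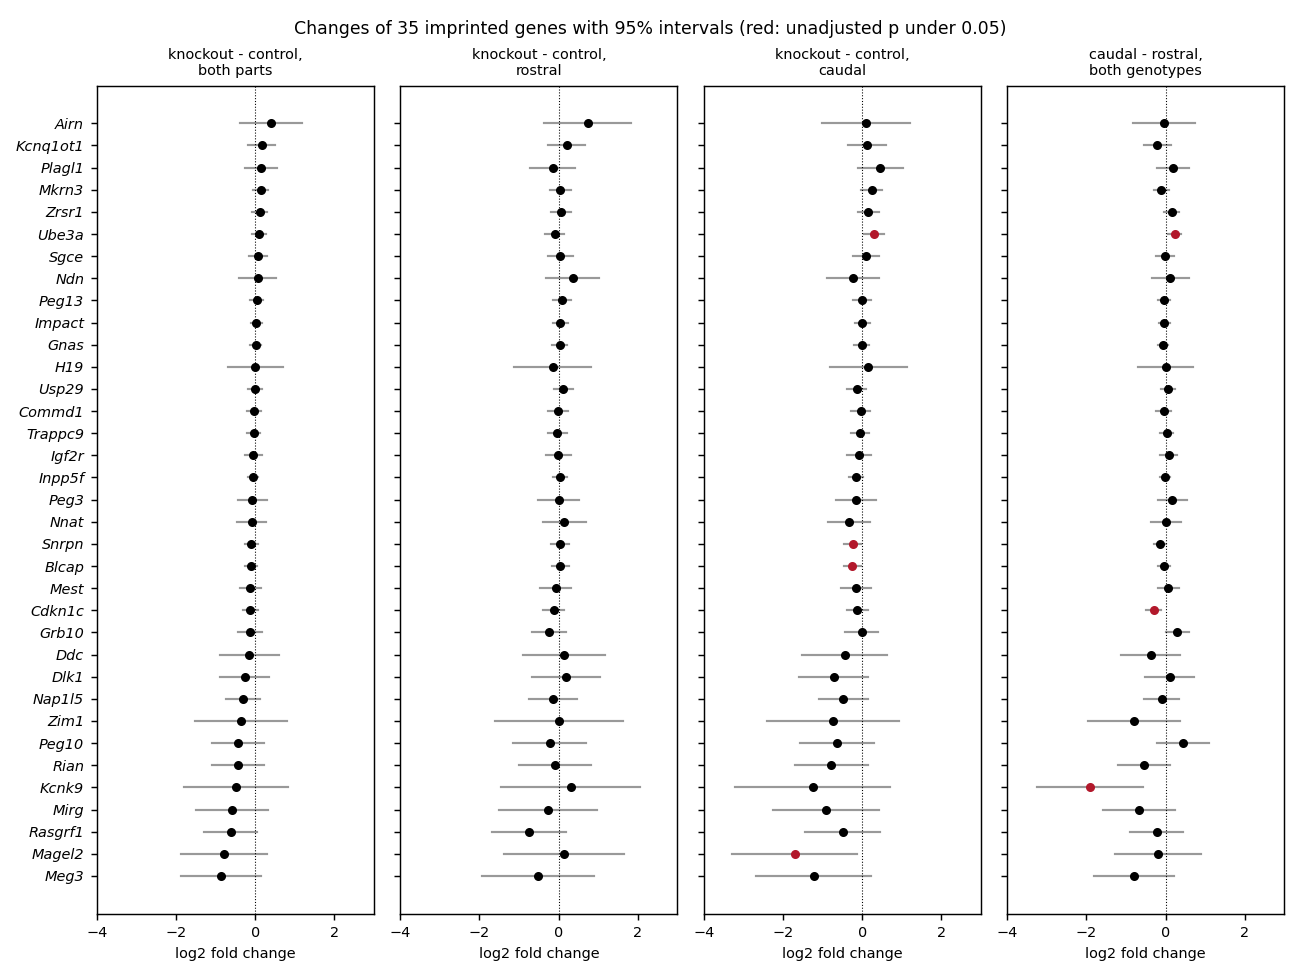
Log2 fold change of each of the 35 tested members with its 95% interval, for genotype over both parts, genotype in rostral libraries, genotype in caudal libraries, and caudal against rostral libraries, with red for an unadjusted p under 0.05. No red point stands in the first and second panels, 4 members are red in the third and 3 in the fourth, and none of them passed after adjustment.

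Within the rostral libraries, 0 of 35 members were called, beside a background of 0.0113%, or 2 genes, and 0 had an unadjusted p under 0.05 (edgeR), against 1.48% of all genes, with 0 also by DESeq2. The changes ranged from -0.75 (Rasgrf1) to 0.73 (Airn), with 19 of 35 positive and a median of 0.03. The levels of 1 member, Kcnq1ot1, did not overlap between the groups, against 6.21% of all genes. This noncoding RNA, which silences its neighbours on the paternal copy, was at 19.3, 17.8 and 18.1 CPM in knockout rostral and 16.1, 16.5 and 16.8 in control rostral libraries, and its log2 change was 0.20 (-0.28 to 0.67).

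Within the caudal libraries, again 0 of 35 members were called, with a background of 0.0169%, or 3 genes. Unadjusted p-values under 0.05 (edgeR) were found for 4 members, Ube3a, Blcap, Magel2 and Snrpn (11.4%), against 3.67% of all genes. DESeq2, without the filter, gave 5 such members of 37 (13.5%, against 1.99% of 36318 genes) and called none. By edgeR without the filter there were 3 of 37 (8.11%, against 2.41%). With the filter, the edgeR count was 0 without knockout caudal 7 (against 2.25% of all genes). It was 2 (5.71%) without knockout caudal 5, control caudal 1 or control caudal 3 (against 4.03%, 4.18% and 2.44%). Without control caudal 9 it was 6 (17.1%, against 3.15%). Of the 35 members 26 had a negative change, with a median of -0.15, where all genes had a median of 0.0 and 50.5% positive. The levels of 10 members (28.6%) did not overlap between the 3 knockout and the 3 control libraries, a share above the 10.2% of all tested genes that did not overlap. These members were picked out by that separation, so it is given as a description. With CPM scaled by the composition factors of the fit, 8 members did not overlap, Ube3a and Blcap being the ones lost, against 10.4% of all genes.

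Ube3a, Mkrn3 and Zrsr1 were higher in all 3 knockout caudal libraries than in the controls. Ube3a (chromosome 7, 58878498 to 58961284) encodes a ubiquitin ligase that neurons express from the maternal copy and that is lost in Angelman syndrome. It was at 251, 231 and 211 CPM in knockout rostral, 267, 333 and 317 in knockout caudal, 259, 229 and 276 in control rostral, and 248, 266 and 242 in control caudal libraries. In the caudal libraries knockout 5 at 267 was just above control 3 at 266. The log2 change was 0.30 (0.05 to 0.54, unadjusted p = 0.0219, adjusted p = 0.9997 by edgeR) in caudal and -0.10 (-0.35 to 0.14) in rostral libraries. Mkrn3 was at 9.76, 11.2 and 9.73 CPM in knockout caudal and 8.95, 8.93 and 8.30 in control caudal libraries, a log2 change of 0.24 (-0.02 to 0.51). Zrsr1, a splicing factor gene inside Commd1, was at 18, 18 and 18.2 CPM against 17.1, 15 and 17.2, a change of 0.16 (-0.10 to 0.42).

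Lower in all 3 knockout caudal libraries were Blcap, Snrpn, Inpp5f, Cdkn1c, Dlk1, Rian and Kcnk9. Blcap, a gene named for its loss in bladder cancer, was at 63.6, 71.3 and 60.9 CPM in knockout caudal and 74.3, 89.9 and 71.7 in control caudal libraries, where knockout 2 and control 9 were nearly level. Its log2 change was -0.25 (-0.47 to -0.04, unadjusted p = 0.0262, adjusted p = 0.9997 by edgeR), and -0.09 without knockout caudal 7 and control caudal 3 together. Snrpn had a change of -0.24 (-0.47 to -0.02), and -0.12 without these 2 libraries. Inpp5f was at 255, 251 and 247 CPM against 278, 301 and 265, a change of -0.15 (-0.32 to 0.03). Dlk1 had a change of -0.72 (-1.59 to 0.14), Rian of -0.78 (-1.70 to 0.14) and Kcnk9 of -1.25 (-3.21 to 0.71), each with an interval that takes in 0.

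Magel2 overlapped between the groups, since knockout caudal 2 at 1.87 CPM was above control caudal 1 at 1.5 and control caudal 9 at 1.62. Its log2 change of -1.70 (-3.28 to -0.12, unadjusted p = 0.0370, adjusted p = 0.9997 by edgeR) became -0.72 without control caudal 3 and -0.27 without that library and knockout caudal 7. Leaving out both of these libraries, 1 member had an unadjusted p under 0.05 by edgeR (2.86%, against 1.9% of all genes). In caudal libraries marker lists of other cells differed as well, in both directions. The 10 interneuron markers were all lower in the knockout (median log2 change -0.45), and 9 of 10 ventral striatal markers were lower (-0.48). The 8 tested endothelial markers (-0.49) and the 6 tested meningeal markers (-0.87) were all lower. Mural and microglia markers had 7 and 6 of 8 lower, with medians of -0.15 and -0.18. Of 9 cortical neuron markers 6 were higher (0.18), as were 6 of 9 radial glia and progenitor markers (0.10). In rostral libraries the tested endothelial, mural, microglia and meningeal markers were all higher in the knockout, with medians of 0.25, 0.57, 0.53 and 0.30. None of these markers passed the adjusted test, and their part in the members' values was not tested.

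**Figure D5:**
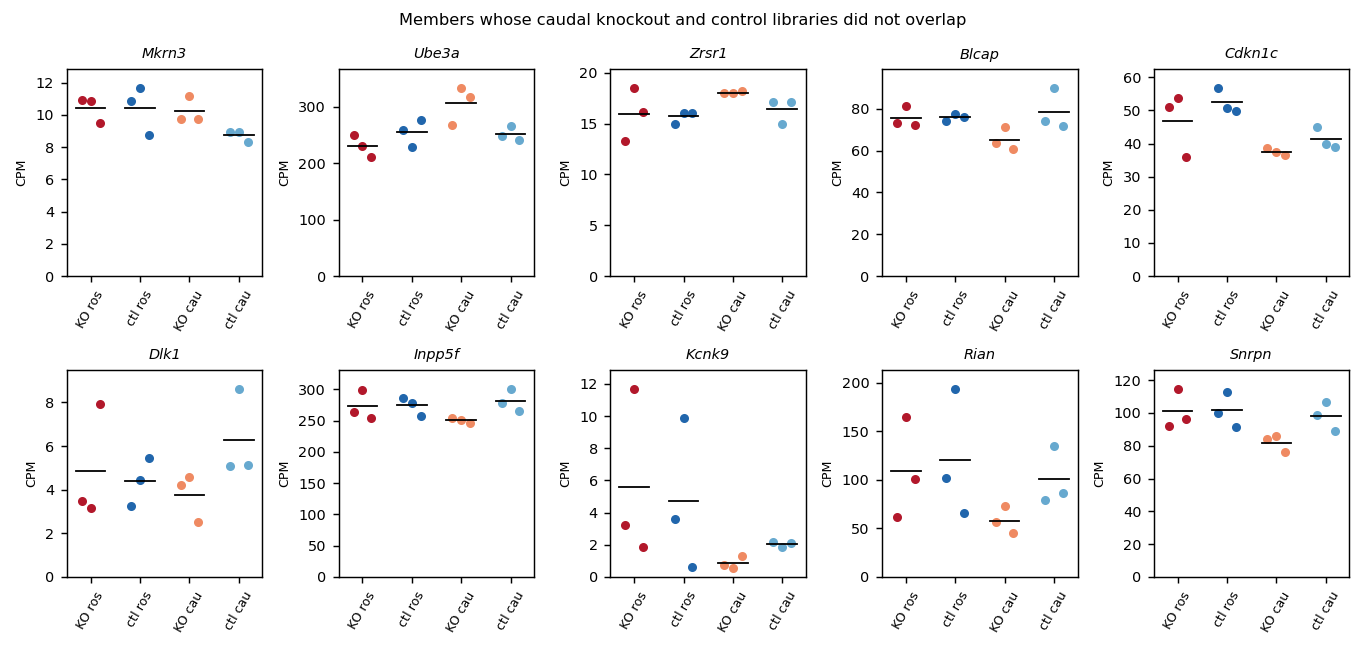
CPM of the 10 members whose levels did not overlap between the 3 knockout and the 3 control caudal libraries, with a point for each library of all 4 groups and axes that start at 0. Ube3a, Mkrn3 and Zrsr1 lie higher in the knockout caudal libraries and the other 7 lower, while in the rostral libraries the groups overlap for each of the 10.

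Between caudal and rostral libraries, 0 of 35 members were called, and the background was 0.0%, as no gene was called at all. At an unadjusted p under 0.05 (edgeR) 3 members were found, Cdkn1c, Kcnk9 and Ube3a (8.57%), against 9.95% of all genes. The count was 8 (22.9%, against 10.1% of all genes) without control caudal 3, 5 (14.3%) without knockout rostral 5 or control rostral 9 (8.51% and 15.2% of all genes), and 1 (2.78%, against 2.16%) without both control rostral libraries of mixed sex. DESeq2, without the filter, also called none, with 5 of 37 members (13.5%) at an unadjusted p under 0.05, against 5.22% of 36318 genes. By edgeR without the filter there were 4 of 37 (10.8%, against 5.82%). The levels of all 35 members overlapped between the 6 rostral and the 6 caudal libraries, where 0.361% of all genes did not overlap. Of the 35 changes, 14 were positive, with a median of -0.04.

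Cdkn1c (chromosome 7, 143012076 to 143014787) encodes p57, a maternally expressed inhibitor of the cell cycle in progenitors. It was at 51.1, 53.7 and 36.0 CPM in knockout rostral, 38.8, 37.3 and 36.5 in knockout caudal, 56.7, 50.8 and 49.7 in control rostral, and 45.1, 39.8 and 39.1 in control caudal libraries. Knockout rostral 7 was the lowest of all 12 libraries, below the caudal range, and the other 5 rostral libraries lay above that range. The caudal minus rostral log2 change was -0.30 (-0.49 to -0.11, unadjusted p = 0.00471, adjusted p = 0.430 by edgeR). Over 20 alternatives its adjusted p was 0.0673 to 1, the lowest without knockout rostral 7.

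Kcnk9 had a caudal minus rostral change of -1.91 (-3.25 to -0.58, unadjusted p = 0.00913, adjusted p = 0.430 by edgeR), at 1.45 ± 0.705 CPM in caudal and 5.15 ± 4.52 in rostral libraries (SD, n = 6 each). Without control rostral 1 and control rostral 3, the libraries with transcripts of both sexes, the change was -0.50 with an unadjusted p of 0.406 (edgeR). Ube3a had a change of 0.23 (0.05 to 0.40, unadjusted p = 0.0157, adjusted p = 0.441 by edgeR), and 0.15 without these 2 libraries. All 3 directions rest on part labels that Nr2f1 goes against in knockout rostral 2, control rostral 3, knockout caudal 2 and control caudal 3.

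Whether the genotype difference depended on the part was tested as an interaction. Again 0 of 35 members were called, with a background of 0.0% and 0 genes called, and DESeq2 called none either. By edgeR Ube3a alone had an unadjusted p under 0.05 (2.86% of members, against 2.74% of all genes). DESeq2, without the filter, gave 1 member of 37 (2.7%, against 1.63% of 36318 genes). The interaction of Ube3a, the caudal minus the rostral genotype difference by edgeR, was 0.40 on the log2 scale (0.05 to 0.75, unadjusted p = 0.0271, adjusted p = 0.998 by edgeR). The interval of the interaction lay within 2-fold for 19 of 35 members. None of the 10 members of the caudal separation can therefore be said to differ between the parts in its genotype effect.

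Other imprinted genes from a list of 48 were read in the same fits, of which 47 were found by name and 32 tested. None was called in any of the 5 comparisons, and the numbers with an unadjusted p under 0.05 (edgeR) were 1 over both parts (3.12%, against 2.24% of all genes), 2 in rostral (6.25%, against 1.48%), 3 in caudal (9.38%, against 3.67%), 2 between parts (6.25%, against 9.95%) and 2 for the interaction (6.25%, against 2.74%). Sfmbt2, a Polycomb group gene, was at 0.395, 0.764 and 0.703 CPM in knockout caudal and 1.08, 2.03 and 1.08 in control caudal libraries, which did not overlap, with a log2 change of -1.16 (-1.93 to -0.38, unadjusted p = 0.00723, adjusted p = 0.9997 by edgeR). Peg12, a gene of the Prader-Willi region, was at 7.73, 6.22 and 7.5 CPM in knockout rostral and 9.43, 9.52 and 11.9 in control rostral libraries, with a change of -0.49 (-0.85 to -0.12, unadjusted p = 0.0138, adjusted p = 1.0 by edgeR). Dio3, the enzyme that inactivates thyroid hormone, at the far end of the Dlk1-Meg3 domain, was at 0.0195 to 0.263 CPM in knockout caudal and 0.540 to 3.10 in control caudal libraries, but at 3.21 CPM in knockout rostral 7. Snurf, which shares its exons with Snrpn, had a change of -0.26 (-0.50 to -0.03) in caudal libraries. Igf2, the paternally expressed growth factor, described after its values were seen, was at 13 to 43.8 CPM in the knockout and 16.7 to 34.5 in the control, with a change of 0.02 (-0.61 to 0.65) over both parts.

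The proteins that set and read imprints were covered by a list of 24 genes, DNA methyltransferases, TET enzymes, ZFP57 and its partner TRIM28, CTCF and Polycomb and histone methyltransferase genes among them, and 22 were tested. None was called, and at an unadjusted p under 0.05 (edgeR) there was 1 between parts (4.55%, against 9.95% of all genes) and 1 for the interaction (4.55%, against 2.74%). Arid4b, a chromatin protein of the Prader-Willi imprint, had a caudal minus rostral change of 0.22 (0.05 to 0.38, unadjusted p = 0.0136, adjusted p = 0.438 by edgeR). Eed, a Polycomb subunit, was at 30.2, 27.5 and 30.2 CPM in knockout rostral, 32.1, 33.1 and 34.7 in knockout caudal, 34.2, 33.9 and 34.4 in control rostral, and 33.3, 27.2 and 28.5 in control caudal libraries, with an interaction of 0.37 (0.10 to 0.64, unadjusted p = 0.0121, adjusted p = 0.998 by edgeR). Ezh2, the catalytic partner of Eed, had an interaction of 0.32 (-0.05 to 0.68). Zfp57 was at 56.3 to 127 CPM, highest in control rostral 3 and knockout rostral 2, and Dnmt1 and the other methyltransferase genes had no unadjusted p under 0.05 in any comparison.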

How the data were processed

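Polyadenylated RNA of 12 libraries was sequenced in pairs of 75-base reads, per the labels' protocols. The submitters' processing notes name STAR 2.7.8a, featureCounts 2.0.3, GRCm39 and GENCODE vM28. Per the file headers, the authors counted fragments on the reverse strand and shared fragments with several places or genes as fractions, so the deposited values are estimated counts (21.6% to 23.9% of detected genes were not whole). They were rounded for the tests and divided by the library total for CPM.

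Genes with enough counts (edgeR's filterByExpr, 17734 genes) were fitted with edgeR 4.0.16 (R 4.3.3, TMM factors, quasi-likelihood with robust spread) in 1 model of 4 groups, 8 residual degrees of freedom, with Benjamini-Hochberg adjustment over all tested genes and a threshold of 0.05. Intervals are 95% intervals from that model. The biological coefficient of variation was 0.206. DESeq2 1.42.0, other scaling, no filter, left-out libraries, blocks and separate fits were alternatives. The procedure was tested on simulated counts in which no library stood apart or was mislabelled, so that test does not cover the uneven libraries described here.

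Values per library were given for members with an unadjusted p under 0.05 over both parts or between parts and for the 5 highest per kilobase; others described by library were chosen after their values were seen. Members and lists were chosen with earlier results of these data known. Libraries of the same embryo number had correlations of deviations of -0.433 to -0.053 over 17067 autosomal genes, and those of other numbers -0.117 to 0.461.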

Additional observations from a re-analysis of the deposited data

How the results depend on the processing

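No member was called in any of the 5 comparisons under any of the 20 alternatives of each, and the lowest adjusted p of a member over them (edgeR or DESeq2) was 0.992 for genotype over both parts, 0.777 in rostral, 0.717 in caudal, 0.0673 between parts and 0.687 for the interaction. Counts over all genes were small and moved. Over both parts 4 genes were called, 15 by DESeq2 and 8 without both control rostral libraries of mixed sex (3 to 9 with single libraries left out). In rostral libraries 2 were called, 5 without the mixed libraries, 1 without control caudal 3 and knockout caudal 7, and 0 in a fit of rostral libraries alone, where 180 genes had an unadjusted p under 0.05 (1 to 8 with single libraries left out). In caudal libraries 3 were called, 26 by DESeq2, 8 without the mixed libraries, 8 in a fit of caudal libraries alone, 5 with no filter, and 1 without control caudal 3 and knockout caudal 7 (1 to 9 with single libraries left out). Between parts 0 were called by edgeR, where 1765 genes had an unadjusted p under 0.05, 74 by DESeq2 and 2 with no filter (0 to 10 with single libraries left out). For the interaction 0 were called by edgeR and by DESeq2, with 486 genes at an unadjusted p under 0.05 (0 to 6 with single libraries left out, the 6 being without control rostral 9). Leaving out control rostral 9 gave the highest count of single left-out libraries in all 5 comparisons. With single libraries left out, members at an unadjusted p under 0.05 (edgeR) numbered 0 to 3 over both parts. They were 3 (8.57%) without knockout caudal 2 or control caudal 9, against 3.01% and 2.54% of all genes. In rostral libraries they numbered 0 to 1. The 1 (2.86%) was without knockout rostral 5 or control rostral 3, against 2.41% and 3.47%. For the interaction they numbered 0 to 4. There were 4 (11.4%, against 5.63%) without control rostral 3, and 0 without knockout caudal 7 or control rostral 9 (against 1.75% and 2.34%). The cause of these moves was not tested.

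The number of members without overlap was 1 to 7 in rostral and 11 to 16 in caudal libraries when each library of the part was left out, and smaller groups overlap less (background 9.56% to 19.4% and 16.1% to 22.8%). Of 9 members followed over both parts under the alternatives, 2 near 0 turned their sign. Nnat, at -0.09, had -0.25 (without knockout rostral 7) to 0.0 (without control caudal 3) with single libraries left out and 0.08 without control caudal 3 and knockout caudal 7. Gnas, at 0.01, had -0.02 to 0.03 with single libraries left out and -0.02 without the mixed libraries.

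With the titled embryo as a replicate block, 0 members and 0 genes were called between parts and for the interaction, and Ube3a's interaction had an unadjusted p of 0.0908 (edgeR). The pairing was not supported by the deviations, since 0 of 6 same-numbered pairs correlated above 0.1 and 6 of 12 other pairs did. Counts summed over titled embryos, 3 against 3, gave 6 genes and 0 members. At this depth Phlda2 and Slc22a18 could not be measured, and the 0 calls among members bound differences only as far as the intervals in the text.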
